A study of Mus musculus with 22 samples.

Results

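The cytosolic ribosomal protein genes encode the protein shell of the ribosome that translates nuclear mRNAs. They were taken as the protein-coding rows whose GENCODE mouse symbol names a protein of the large (Rpl, Rplp) or small (Rps, Rpsa) subunit. The rule found 83 genes among the 53392 rows of the table, 51 of the large and 32 of the small subunit. No measured value entered the choice. Of the 83, 80 passed the filter on low counts and were tested, and Rpl10l, Rpl39l and Rpl3l did not pass. A further 6 rows with fitting symbols (Rpl32l, Rpl6l, Rps12l1, Rps3a2, Rps3a3 and Rps4l) are not annotated as protein-coding and were left out.

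Liver RNA was sequenced from 22 female C57BL/6 mice, 1 library each, in groups named here by the 2 letters of the sample titles. Conventional mice, which carry an ordinary microbiota, were 6 non-pregnant (CN) and 5 pregnant (CP) animals with age labels of 70 to 77. Germ-free mice, raised without microorganisms, were 6 non-pregnant (GN) animals labelled 92 to 105 and 5 pregnant (GP) animals labelled 91 to 121. The unit of age is not stated, all pregnant mice were taken at gestation day 15, and the start of gestation was assumed for germ-free mice, which spent 72 h with males. The age at mating was 8 weeks for CP and 11 to 15 weeks for GP. Ages did not overlap between conventional and germ-free mice, so microbiota status and age cannot be told apart.

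Ribosomal RNA and ribosomal proteins are made in matched amounts, and free ribosomal proteins are degraded. The mRNAs of these proteins are TOP mRNAs: they begin with a run of pyrimidines just after the cap, through which their translation follows nutrient signalling by mTORC1. Liver cells secrete much of the plasma protein and hold many ribosomes, so these mRNAs are abundant in the tissue. A change in translation of TOP mRNAs need not change their level, and RNA-seq measures the level alone.

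Short stretches around the annotated starts are shown because a pyrimidine run at the start is the feature by which TOP mRNAs are known, and to show which of the genes described below carry one in these windows. RefSeq windows of 300 bases (GRCm38.p6, from 250 bases before a start to 50 after it) were matched for 63 of the 83 genes by symbol, in 75 windows. Each stretch below holds 30 bases, 18 before the start and 12 from it on, read 5′ to 3′ on the gene's strand. Capitals mark the longest run of at least 6 C or T that reaches within 20 bases of the start.
Rpl4, chr9:64173369-64173398, plus strand: TCTTTCCTTTTCCTgtgggagcagccgggt
Rpl38, chr11:114668562-114668591, plus strand: ggaagcggaagcctcgTTCTTTCCCCgttc
Rps27, chr3:90213637-90213666, minus strand: aggatttccgctttcgCTCCTTTCCggcgg
Rps27l, chr9:66946068-66946097, plus strand: tctccaCTCCTCCCCgccgcctctatcccg
Rpl22, chr4:152325708-152325737, plus strand: gacttcgccctgggaaaagcaatagctggc
Rpl22l1, chr3:28805490-28805519, plus strand: tgcgtgcggcgcaagcccgTTCTCTTCCCa

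A run of this kind was present in 47 of the 75 windows (62.7%), against 14421 of all 32851 RefSeq windows (43.9%). It spans the RefSeq start in Rps27 and Rpl38, lies 18 to 5 bases before it in Rpl4, and is not in the Rpl22 stretch. The run of Rps27l, 9 bases long, begins 12 bases before the start and ends ahead of it. In Rpl22l1 the run begins at base 2 counted from the start. The GENCODE gene of Rpl4 begins at chr9:64173375, inside the marked run. That of Rpl22 begins at chr4:152325742, past the end of the printed stretch. The letters CGGAAG, or CTTCCG on the other strand, stood anywhere in 45 of the 75 windows (60%) and in 5537 of all windows (16.9%). A run and CTTCCG can overlap, since a run may end in CTTCC, and did so in 1 window of these genes (1.3%) and 302 of all windows (0.9%). The RefSeq starts of the 6 stretches lie 0 to 72 bases from the 5′ end of the GENCODE gene. The distance is 0 bases in Rps27l. It is 56 bases in Rpl38 and 72 in Rpl22l1, where the GENCODE gene begins before the printed stretch. These matches describe sequence and were not tested for a role in the levels below.

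The coding sequences of Rps27 and of its single-exon copy Rps27rt are shown because the levels of Rps27 turn on them. Rps27 lies at chr3:90212522-90213651 (minus strand) and Rps27rt at chr9:114982366-114982739 (minus strand) in the GENCODE M21 gene models on GRCm38. The first 60 of 255 coding bases from the GENCODE transcripts follow, with capitals where a sequence differs from Rps27.
Rps27: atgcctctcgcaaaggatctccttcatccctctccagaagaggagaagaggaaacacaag
Rps27rt: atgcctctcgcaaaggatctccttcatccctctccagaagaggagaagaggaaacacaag
Rps27l: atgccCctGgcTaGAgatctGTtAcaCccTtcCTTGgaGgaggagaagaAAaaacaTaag
Rps27 and Rps27rt were identical over all 255 coding bases, so a read from the coding part cannot be assigned to either by sequence. The paralog Rps27l differed from Rps27 at 61 of 255 bases (76.1% identity), and its longest identical stretch was 11 bases.

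Library totals were 18064491 to 30036912 estimated counts, and mitochondrially encoded genes took 5.9% to 31.99% of them. All 10 hepatocyte markers were found, with a summed level of at least 65400 CPM (counts scaled to a common library total) in each library. The pregnant conventional library CP2 stood apart, with the highest summed levels of Kupffer cell (1600 CPM), T and NK cell (30.9 CPM), neutrophil (51.2 CPM) and proliferation (191 CPM) markers of all 22 libraries. In the libraries other than CP2, the highest summed Kupffer cell level was 754 CPM. Summed erythroid markers, which could mark blood-forming cells, were 448 to 862 CPM in CN, 369 to 2250 in CP, 237 to 1770 in GN and 1760 to 3570 in GP. The part of these cells in the values below was not tested.

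The share of the library on the 83 genes together overlapped between all groups. It ran from 1.39% to 2.2% in CN (median 1.85%, mean 1.85% ± 0.287, SD, n = 6). In CP it was 1.32%, 2.89%, 1.64%, 1.46% and 1.63% (mean 1.79% ± 0.63, n = 5). In GN it ran from 1.4% to 2.45% (median 2.08%, mean 2.03% ± 0.348, n = 6). In GP it was 1.98%, 1.44%, 1.93%, 1.52% and 1.43% (mean 1.66% ± 0.272, n = 5). The highest share, 2.89%, was in CP2. Of the counts outside mitochondrially encoded genes the mean share was 2.22% ± 0.405 in CN, 1.98% ± 0.64 in CP, 2.54% ± 0.335 in GN and 2% ± 0.429 in GP. Both pregnant means lay below both non-pregnant means on that scale, with overlapping ranges and CP2 highest at 3.08%. On the CPM scale used for the tests this order was not seen. There the summed level of the 83 genes was 17800 ± 4090 CPM in CN and 17500 ± 4640 in CP. It was 19100 ± 2760 CPM in GN and 19400 ± 3940 in GP, the highest mean. Albumin counts are part of the total on both scales of the share. Of all counts, albumin took 4.56% to 7.24% in CN, 6.32% to 16.96% in CP, 3.65% to 6.65% in GN and 8.08% to 11.29% in GP. The part of albumin in these shares was not tested. Fewer cells of a type and less RNA per cell cannot be told apart in these bulk samples.

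**Figure D1:**
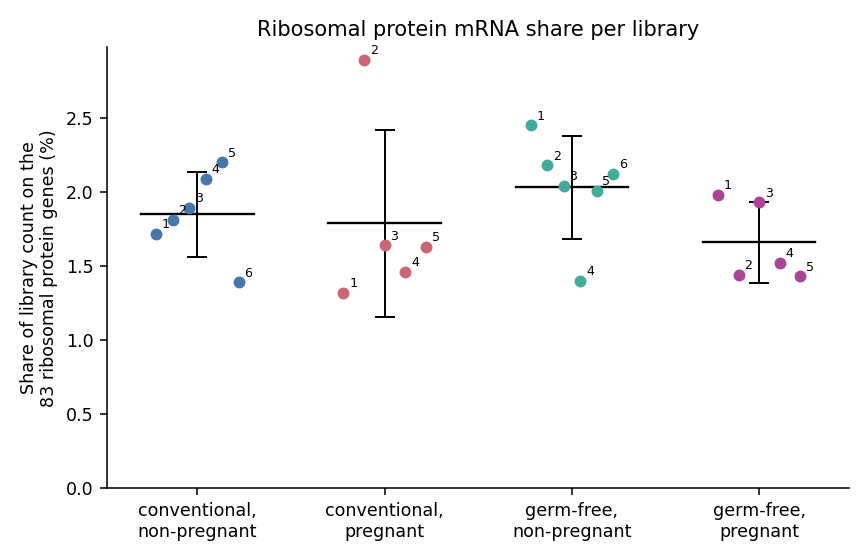
Share of each library's estimated counts on the 83 ribosomal protein genes, in percent, by group; points are libraries labelled with the mouse number, lines are means and bars are SD. The groups overlap, and CP2 lies highest at 2.89%.

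Per kilobase of the shortest principal transcript, 74 of the 80 tested genes had a mean level over all 22 libraries of 147 to 1150 CPM per kb. The median over the 80 was 285 CPM per kb. The highest were Rplp1, an acidic protein of the ribosomal stalk (1150 CPM per kb), Rps14, a protein of the small subunit platform (877), and Rpl41, the smallest ribosomal protein (812). Rpl13a, a large subunit protein, followed at 775 and Rps2, a protein at the mRNA entry of the small subunit, at 639. Below 100 CPM per kb lay 6 tested genes: Rpl22l1 at 90.3, Rps20 at 48.3, Rpl7l1 at 36.0, Rps12 at 27.8, Rpl5 at 11.4 and Rpl12 at 5.07. For Rps12, Rpl5 and Rpl12, most reads of the family were assigned to copies, as described further on. The shortest principal transcript of Rps20 is 3706 bases, which lowers its value per kilobase.

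Whether pregnancy changed these mRNAs was asked first in conventional mice. No gene of the 80 passed the test (edgeR quasi-likelihood test, Benjamini-Hochberg adjusted over all genes tested), whereas 9.02% of all 15928 genes tested did. At an unadjusted p under 0.05 the count was also 0 of 80, against 22% of all genes. CP and CN libraries did not overlap for 0 of 80, against 4.95% of all genes. The median log2 change was -0.03 over the 80 and 0.04 over all genes, with 32 of the 80 above 0. The median was -0.03 over 48 large and -0.04 over 32 small subunit genes. The 95% interval of the change lay within 2-fold in either direction for 78 of 80 genes and within 1.5-fold for 41. The median was -0.18 without CP2 and 0.08 without CP1, and no gene passed in either fit.

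Rplp0, the stalk base (chr5:115559467-115563727, plus strand), had 307 to 401 CPM in CN (median 378) and 316, 588, 436, 318 and 553 CPM in CP. CP2, CP3 and CP5 lay above all CN libraries, and CP1 and CP4 lay inside the CN range. The log2 change was 0.26 ± 0.16 (SE, edgeR adjusted p = 0.376). Rpl4, a large subunit protein that lines the exit tunnel (chr9:64173375-64178666, plus strand), had 341 to 453 CPM in CN (median 420) and 348, 539, 486, 439 and 527 CPM in CP. Its groups overlapped at a log2 change of 0.22 ± 0.14 (edgeR adjusted p = 0.379). Rps9, a small subunit protein, had the change nearest 0 among the more abundant genes, 0.00 ± 0.19.

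The same comparison in germ-free mice again gave 0 of 80 passing, while 10.8% of all genes passed. At an unadjusted p under 0.05 there were 4 of 80 (3 higher and 1 lower), against 24.1% of all genes. GP and GN libraries did not overlap for 2 of 80, Rplp0 and Rps2, against 8.51% of all genes. The median log2 change was -0.01 over the 80 and -0.02 over all genes, with 37 of 80 above 0. The interval lay within 2-fold for 75 of 80 genes and within 1.5-fold for 45.

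Rplp0 came nearest to passing. Its level was 345 to 435 CPM in GN (median 358) and 522, 513, 695, 477 and 445 CPM in GP, so each GP library lay above each GN library. The log2 change was 0.49 ± 0.16 (95% interval 0.16 to 0.83, 1.41-fold), with an edgeR adjusted p of 0.0534. Rplp0 passed in 3 of 19 alternative fits and did not in 16, with log2 changes of 0.38 to 0.54 and adjusted p from 0.0282 to 0.196 over the 19. It passed with DESeq2 (adjusted p = 0.0282), in a fit of the GN and GP libraries alone (edgeR adjusted p = 0.0349) and without GN2 (edgeR adjusted p = 0.0462).

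Rpl4 and Rps2 followed. Rpl4 had 363 to 464 CPM in GN (median 422) and 576, 593, 596, 477 and 448 CPM in GP, with GP5 inside the GN range. The log2 change of Rpl4 was 0.36 ± 0.14 (edgeR adjusted p = 0.095). Rps2 (chr17:24718116-24721929, plus strand) had 587 to 643 CPM in GN (median 611) and 807, 763, 937, 676 and 653 CPM in GP, without overlap. The log2 change of Rps2 was 0.32 ± 0.15 (edgeR adjusted p = 0.176) and was -0.02 ± 0.15 in conventional mice. The difference between these pregnancy changes of Rps2 was 0.35 ± 0.21 and did not pass the interaction test (edgeR adjusted p = 0.887).

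**Figure D2:**
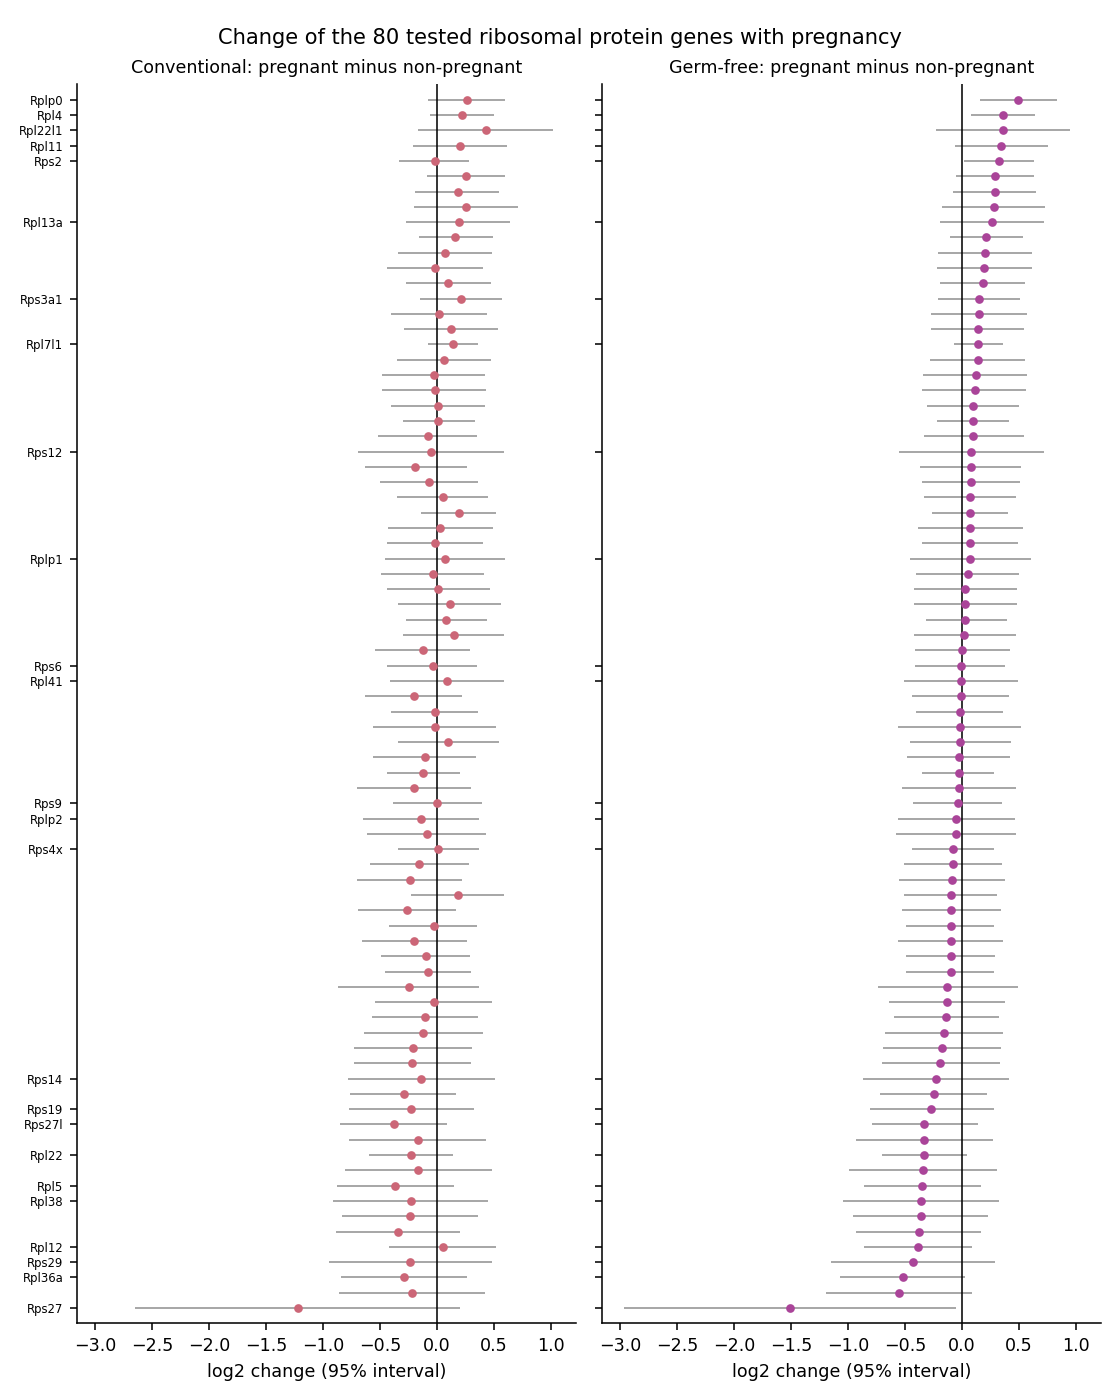
Log2 change with pregnancy and its 95% interval for each of the 80 tested genes, in conventional (left) and germ-free (right) mice, ordered by the germ-free change, with names at genes the text describes. Rplp0 stands at 0.49 and Rps27 at -1.51 in germ-free mice, and Rps27 has the widest interval in both panels.

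Across the 80 genes, 63 had the same sign of change in both pregnancy comparisons (78.8%), against 68.8% of all genes tested. The comparisons share no library. Spearman's rho between the changes was 0.79 over the 80 genes and 0.5 over all genes tested, given as a description across genes that are not independent. The shortest genes had the lower changes, and rho between length and change was 0.43 in conventional and 0.38 in germ-free mice over the 80 genes. Over the other tested genes these were 0.13 and 0.14. Of the 30 genes shorter than 600 bases, 6 had a positive change in conventional and 10 in germ-free pregnancy, with medians of -0.15 and -0.1. The medians were 0.01 and 0.03 for the 32 genes from 600 to under 1000 bases and -0.02 and 0.06 for the 18 of 1000 bases or more, so no order was seen beyond the shortest genes in conventional mice. For 568 other tested genes shorter than 600 bases the medians were -0.13 and -0.24. The part of transcript length in these changes was not tested.

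In germ-free pregnancy the median log2 change was -0.02 over the 48 large and 0.00 over the 32 small subunit genes. Summed over genes, which lets the most abundant weigh most, small subunit genes per unit of large subunit CPM had 0.657 to 0.705 in CN (median 0.6685) and 0.645, 0.665, 0.641, 0.644 and 0.654 in CP. They had 0.652 to 0.701 in GN (median 0.678) and 0.642, 0.649, 0.637, 0.657 and 0.612 in GP. CP and CN overlapped in 1 library, CP2 at 0.665, and GP4 at 0.657 lay above the lowest GN library. Without Rps27 the ranges were 0.656 to 0.692 in CN, 0.635 to 0.659 in CP, 0.647 to 0.698 in GN and 0.611 to 0.655 in GP. The ratio is given without a test.

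Germ-free status gave no call either. In non-pregnant mice 0 of 80 genes passed, against 0.157% of all genes. At an unadjusted p under 0.05 there were 0 of 80 against 6.01%, and groups without overlap were 0 of 80 against 0.779%. The median log2 change was 0.10 over the 80 and -0.01 over all genes, with 73 of 80 above 0. That median was 0.02 without CN6 and 0.2 without CN4. In pregnant mice 0 of 80 passed, against 0.132% of all genes. There 1 gene, Rps2 (log2 change 0.39 ± 0.15, edgeR adjusted p = 0.38), had an unadjusted p under 0.05, against 10.5%, and 0 of 80 had groups without overlap, against 1.1%. The median was 0.11 over the 80 and -0.03 over all genes, with 66 of 80 above 0. That median was -0.01 without CP1, 0 without GP1 and 0.23 without CP2. Because the genes moved together between libraries, as described next, a shared sign over many of them does not add up as separate evidence. The interaction of pregnancy and microbiota gave 0 of 80, with 0% of all genes called, and 0 of 80 against 5.67% at an unadjusted p under 0.05.

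The spread between mice of a group was shared by nearly the whole set. After removal of group means, the mean correlation between pairs of the 80 genes over the 22 libraries was 0.74. The first principal component held 75.5% of their within-group variance, against 18.6% for all genes tested. For 71 of the 80 genes the correlation with the median of the other genes was above 0.7. The 9 others were Rpl12, Rpl13a, Rpl3, Rpl7l1, Rplp0, Rps12, Rps14, Rps2 and Rps3. The median deviation of the 80 genes per library, on the log2(CPM + 0.5) scale, ran from -0.72 in CP1 and -0.56 in CN6 to 0.44 in CN4 and 0.47 in GP1. Low and high libraries were found in each group. All points share library, depth and scaling.

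**Figure D3:**
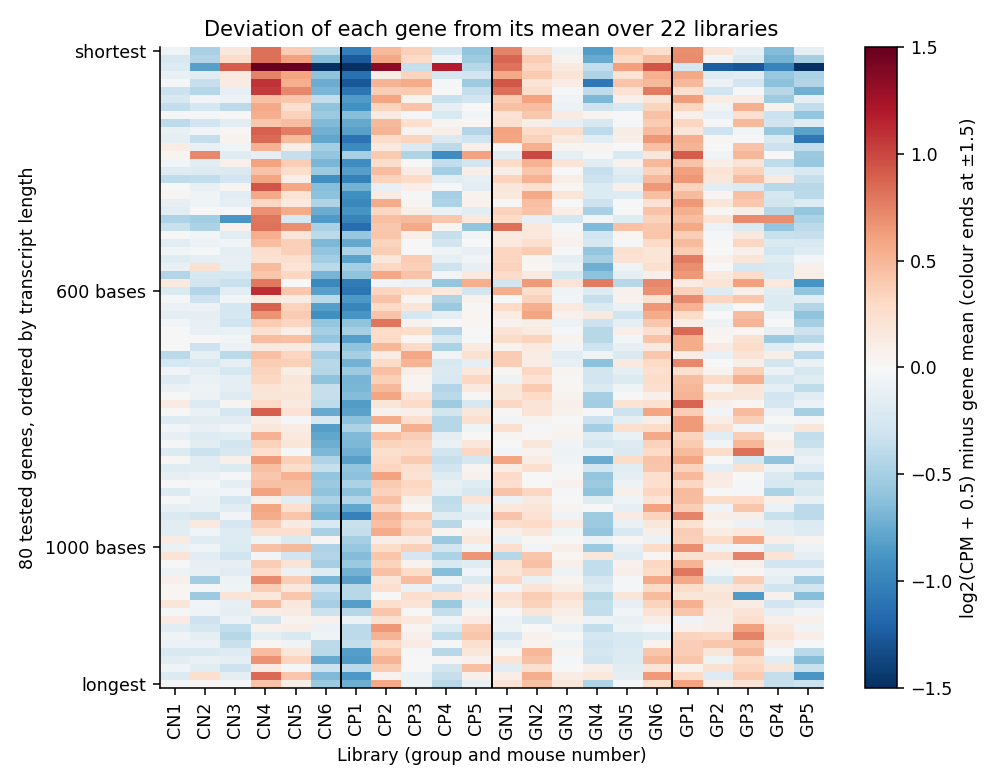
Deviation of each of the 80 tested genes (rows, by transcript length) from its mean over 22 libraries (columns, by group), on the log2(CPM + 0.5) scale; red is higher and blue lower, and colours end at ±1.5. CP1 and CN6 are low and CN4 and GP1 high over most rows, and the strong row near the top is Rps27.

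The median spread between mice was wider in the set than in other genes of 100 to 1000 CPM, which were not matched in length. The median within-group SD of log2(CPM + 0.5) was 0.37 for the 80 genes and 0.29 for 958 other tested genes of 100 to 1000 CPM. The 80 genes were not limited to that level, and Rps12, Rpl5 and Rpl12 were among those below 100 CPM. The shortest genes varied most, with a median SD of 0.43 for the 30 genes under 600 bases and 0.35 for the 18 of 1000 bases or more. Genes of lengths between these had a median SD no higher than that of the longest. Spearman's rho between length and SD was -0.56 across the 80 genes. The most variable were Rps27 (SD 1.31, 345 bases), Rps29 (0.64, 390 bases) and Rpl38 (0.60, 345 bases). Rps29, a small subunit protein with a zinc-binding fold, had 96.4 to 342 CPM in CN alone. Rpl38, a large subunit protein studied for its role in the translation of Hox mRNAs, had 78.2 to 216 CPM in CN. At the other end Rpl7l1 had an SD of 0.14 and a correlation of 0.08 with the median of the other genes.

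**Figure D4:**
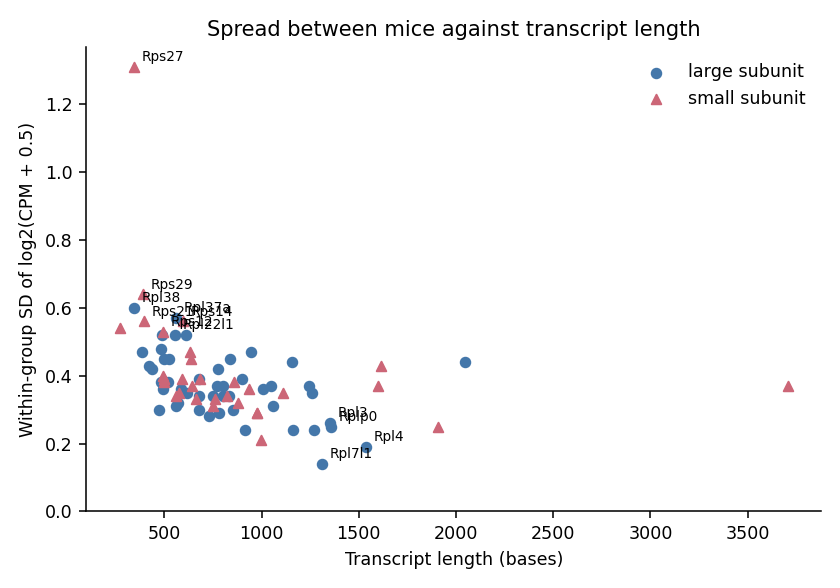
Within-group SD of log2(CPM + 0.5) against transcript length in bases for the 80 tested genes, with large subunit genes as circles and small subunit genes as triangles. Rps27 lies highest at 1.31, Rps29 and Rpl38 follow at 0.64 and 0.60, and Rpl7l1 lies lowest at 0.14.

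Of the 5 most abundant genes per kilobase, Rps2 is described above and the others had wider standard errors. Rplp1 (chr9:61913284-61914542, minus strand) had 290 to 825 CPM in CN (median 436) and 270, 696, 670, 488 and 500 CPM in CP. It had 440 to 786 CPM in GN (median 636) and 856, 614, 754, 599 and 429 CPM in GP. The log2 change was 0.07 ± 0.26 in both pregnancy comparisons. Rps14 changed by -0.14 ± 0.31 and -0.23 ± 0.31, Rpl41 by 0.09 ± 0.24 and -0.01 ± 0.24, and Rpl13a by 0.19 ± 0.22 and 0.26 ± 0.22, conventional before germ-free. Rps6, the small subunit protein phosphorylated by S6 kinase downstream of mTORC1, had mean levels of 303, 294, 293 and 290 CPM in CN, CP, GN and GP.

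Rplp2, another stalk protein, had log2 changes of -0.14 ± 0.25 and -0.05 ± 0.25, and its difference from Rplp0 was not tested. Rpl11, which enters the ribosome with Rpl5 and 5S rRNA and can bind Mdm2, had mean levels of 281, 322, 316 and 401 CPM in CN, CP, GN and GP. The Rpl5 row had 25.1, 19.5, 26.9 and 21.1 CPM, and with its copy Gm15500 it had 243, 253, 257 and 250 CPM. Rps19, a small subunit protein whose loss impairs red cell formation, had 154, 131, 172 and 143 CPM. None of these genes passed the test in any comparison.

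The symbols of 6 genes mark a paralog of another member: Rpl22l1, Rpl7l1 and Rps27l, which were tested, and Rpl10l, Rpl39l and Rpl3l, which were not. Paralogs can take the place of the usual protein in some tissues, and Rpl3l is known from striated muscle and Rpl10l from testis. Their summed estimated counts over 22 libraries were 57 for Rpl3l, 26 for Rpl10l and 6.5 for Rpl39l. Rpl7l1 had changes of 0.14 ± 0.10 and 0.14 ± 0.10, conventional before germ-free. Rps4x and Rps3a1, the usual mouse genes of their proteins despite the added letter and digit, had changes of 0.01 ± 0.17 and -0.08 ± 0.17 and of 0.21 ± 0.17 and 0.15 ± 0.17. Rps27l, a p53 target, had 79.6 to 238 CPM in CN (median 125) and 75.5, 114, 133, 122 and 110 CPM in CP. In GN it had 107 to 194 CPM (median 135) and in GP 158, 111, 107, 92.5 and 92.7 CPM. Its changes were -0.38 ± 0.23 and -0.33 ± 0.23 (edgeR adjusted p = 0.345 and 0.405), with overlap in both.

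The ratio of Rpl22l1 to Rpl22 was examined after its values were seen, so its test is not independent evidence. Rpl22 (chr4:152325742-152334071, plus strand) and Rpl22l1 (chr3:28805436-28807424, plus strand) encode large subunit proteins of which either can be incorporated, and Rpl22 is known to repress Rpl22l1. Rpl22l1 had 25.2 to 82.1 CPM in CN (median 33.2) and 23.1, 63.9, 65.6, 62.1 and 52.3 CPM in CP. In GN it had 38.8 to 59.7 CPM (median 44.1) and in GP 64.5, 53.7, 76.9, 76.2 and 33.4 CPM. Rpl22 had 69.7 to 150 CPM in CN (median 102) and 65.5, 112, 101, 87.3 and 100 CPM in CP. In GN it had 103 to 139 CPM (median 116) and in GP 108, 93.9, 122, 82.3 and 68.2 CPM. Neither gene passed alone, with changes of 0.43 ± 0.29 and 0.36 ± 0.29 for Rpl22l1 and of -0.23 ± 0.18 and -0.33 ± 0.18 for Rpl22.

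Per 100 CPM of Rpl22, Rpl22l1 had 24.5 to 54.6 in CN (median 32.9) and 35.3, 57.2, 64.8, 71.2 and 52.2 in CP. In GN it had 31.3 to 48.3 (median 41.3) and in GP 59.6, 57.2, 62.9, 92.6 and 48.9. Each GP library lay above each GN library, while CP1 and CP5 lay inside the CN range and CN4 and CN6 inside the CP range. The ratio was 1.59-fold higher in GP than in GN (log2 0.66, exact two-sided permutation test, p = 0.00216, the smallest that 462 regroupings allow, adjusted over 4 comparisons 0.00864). It was 1.59-fold higher in CP than in CN (log2 0.67, exact permutation p = 0.0216, adjusted 0.0432), and that p rose above the threshold without CP2 (exact p = 0.0524, not adjusted), CP3 or CP4 (0.0619 each). GN and CN differed by 0.21 (adjusted exact p = 0.357) and GP and CP by 0.20 (0.437). With 1 library left out these values ran from 0.11 to 0.34 and from 0.04 to 0.3. The 0.34 came without CN4 (exact permutation p = 0.0325, not adjusted). No other paralog ratio was tested, and the adjustment covers these 4 comparisons only.

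**Figure D5:**
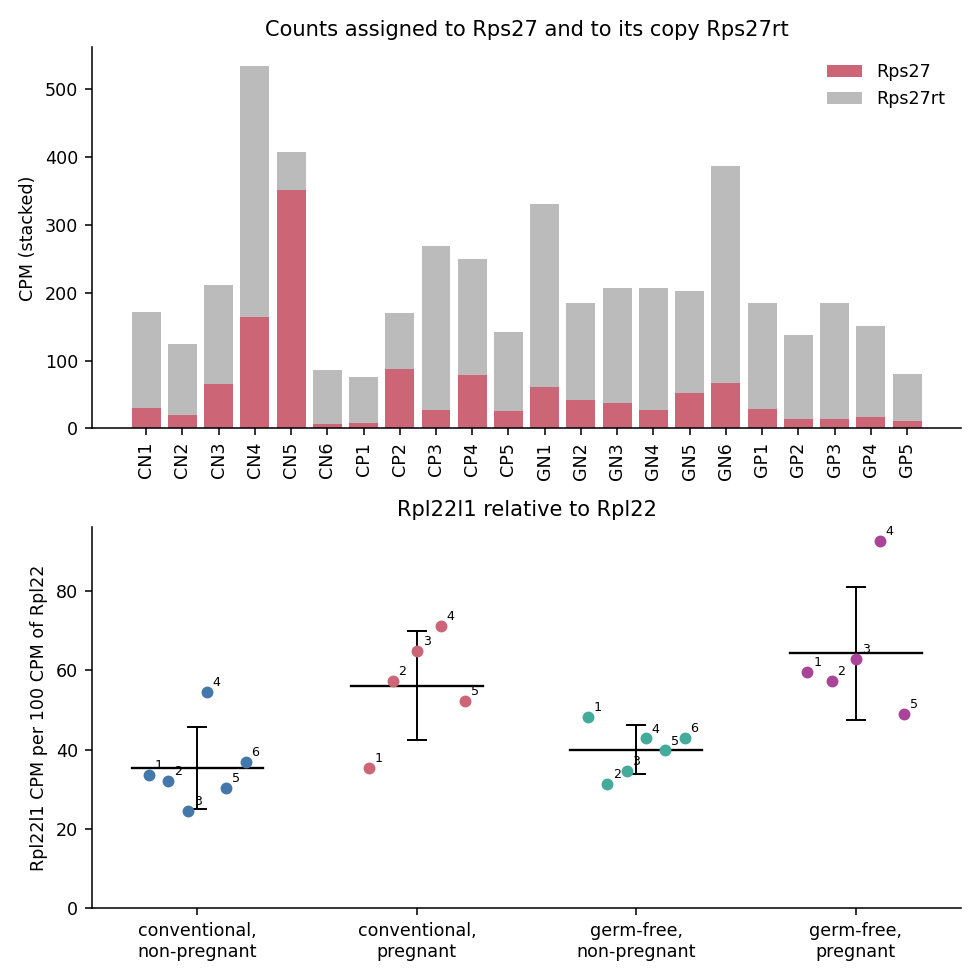
Top, CPM assigned to Rps27 (red) and its copy Rps27rt (grey), stacked for each library; bottom, Rpl22l1 CPM per 100 CPM of Rpl22 by group, with points for libraries, lines for means and bars for SD. CN5 and CP2 are the libraries in which most of the Rps27 pair was assigned to Rps27, and each GP library lies above each GN library in the lower panel.

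Rps27 had the largest changes of the set, and its counts depended on how reads were divided with Rps27rt. Rps27 had 6.81 to 351 CPM in CN (median 47.2) and 8.31, 88.1, 26.8, 78 and 25.4 CPM in CP. In GN it had 26.4 to 66.4 CPM (median 47.7) and in GP 28.6, 14.2, 13.9, 16.9 and 10.4 CPM, with GP1 inside the GN range. The log2 changes were -1.22 ± 0.69 in conventional and -1.51 ± 0.70 in germ-free pregnancy (edgeR adjusted p = 0.314 and 0.188). Without CN5 the conventional change was -0.32 (edgeR adjusted p = 0.841).

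Rps27rt took 14% of the pair in CN5, 48% in CP2 and 68.6% to 92.5% in the other libraries. The range over 22 libraries was 51.6-fold for Rps27 and 7.13-fold for the sum of the pair, from 75 to 535 CPM. With its copies added, Rps27 changed by -0.50 ± 0.39 in conventional and by -0.78 ± 0.39 in germ-free pregnancy (edgeR adjusted p = 0.503 and 0.227). In a fit of the GN and GP libraries alone, Rps27 without its copies passed (edgeR adjusted p = 0.00185).

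Rows that share sequence with other members held counts too, and whether reads were misassigned to them was not tested. By shared 31-base words (at least 50% of those of a transcript), 289 rows were copies of 68 of the 83 genes. Of these rows, 276 were annotated as pseudogenes and 10 as protein-coding. Copies held over 50% of the family's counts for 4 genes: 93.2% for Rps12 (mainly Rps12-ps3), 90.65% for Rpl5 (Gm15500), 71.06% for Rps27 and 51.16% for Rpl12 (Gm10275). For Rpl36a the figure was 22.31% (Rpl36a-ps2). The copies Rps12-ps3, Gm15500 and Gm10275 share each of their words with the parent gene. The row of Rps12 had 8.44 to 21.6 CPM in CN, while Rps12-ps3 had 112 to 262 CPM. The row of Rpl5 had 14.0 to 40.6 CPM in CN and Gm15500 154 to 323 CPM.

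With copies added, the conventional pregnancy change of Rpl5 went from -0.37 ± 0.25 to 0.06 ± 0.20, and the germ-free one of Rpl12 from -0.39 ± 0.23 to 0.11 ± 0.20. The levels and changes of Rps27, Rps12, Rpl5 and Rpl12 are therefore uncertain one by one. Gm7536, a copy of Rpl27a, was listed at 0 in CN1, CN3, CN4 and CN5 and had 73 CPM in CN2, while Rpl27a with Gm7536 had 181 to 397 CPM in CN.

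Other ribosome parts and the translation machinery were taken as lists. The share of all genes called was 9.02% in conventional and 10.8% in germ-free pregnancy, and the counts below are set against it. Of the ribosome parts outside the rule, Fau, Rack1 and Rpl36al did not pass in any comparison. Fau, a ubiquitin-like fusion of a small subunit protein, changed by -0.48 ± 0.23 and -0.47 ± 0.23 without passing. Of 9 elongation factors, 0 passed in conventional and 1 in germ-free pregnancy, near the 10.8% of all genes. That gene was Eef2, the translocation factor, also a TOP mRNA, at 820 to 1060 CPM in GN and 1230 to 1510 CPM in GP (log2 change 0.58 ± 0.17, edgeR adjusted p = 0.0319). In conventional mice Eef2 changed by 0.23 ± 0.17 without passing, and the interaction was not called (edgeR adjusted p = 0.887).

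Among 37 initiation factors, 1 rose in conventional and 2 rose in germ-free pregnancy, below the 9.02% and 10.8% of all genes called. Eif2b4, a subunit of the exchange factor for eIF2, rose by 1.39 ± 0.17 (edgeR adjusted p = 7.96e-06) and 1.62 ± 0.17 (8.24e-07) on the log2 scale. Of 17 TOP mRNAs that encode no ribosomal protein, 0 passed in conventional pregnancy, against 9.02% of all genes called. In germ-free pregnancy 2 rose and 2 fell, a share above the 10.8% of all genes called. That difference in share was not tested. Snhg1, a snoRNA host gene, fell by 1.17 ± 0.37 on the log2 scale (edgeR adjusted p = 0.045) there. The median change of this list was -0.05 in conventional and 0.05 in germ-free pregnancy, against 0.04 and -0.02 over all genes tested.

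Of 79 ribosome assembly factors, 2 rose and 0 fell in conventional pregnancy, below the 9.02% of all genes, led by the helicase gene Ddx18 (0.57 ± 0.13, edgeR adjusted p = 0.00651). In germ-free pregnancy 1 rose, Bop1 of the large subunit assembly pathway (0.66 ± 0.15, edgeR adjusted p = 0.00561), and 2 fell, led by Rrs1 (-0.44 ± 0.14, 0.0359). Of 14 RNA polymerase I genes, Ttf1, a termination factor, rose in conventional pregnancy (0.49 ± 0.14, edgeR adjusted p = 0.0287). Polr1a, the largest polymerase I subunit, rose in germ-free pregnancy (0.49 ± 0.11, 0.00525) while Taf1d fell (-0.77 ± 0.23, 0.0353).

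Of 26 genes of mTORC1 and translation control, 1 rose in conventional and 3 in germ-free pregnancy, where 9.02% and 10.8% of all genes were called. Ddit4, an inhibitor of mTORC1, rose in conventional mice from 2.46 to 5.2 CPM in CN to 6.52 to 9.17 CPM in CP (0.98 ± 0.21, edgeR adjusted p = 0.00347). In germ-free mice Ddit4 had 6.06 to 8.65 CPM in GN and 4.69 to 11.4 CPM in GP, where the change was 0.00 ± 0.21 (edgeR adjusted p = 0.993). The interaction for Ddit4 did not pass (edgeR adjusted p = 0.863). Ppp1r15b, which recruits a phosphatase to eIF2, rose in germ-free mice (0.70 ± 0.17, edgeR adjusted p = 0.00803). The 78 mitochondrial ribosomal protein genes had 0 higher and 5 lower in conventional pregnancy, below the 9.02% of all genes called, with a median of -0.18 against 0.04 over all genes. They were led by Mrpl55 (-0.67 ± 0.21, edgeR adjusted p = 0.0468). In germ-free pregnancy 2 fell (median -0.08), led by Mrpl47 (-0.62 ± 0.17, edgeR adjusted p = 0.0196). None of these lists had a called gene in either germ-free comparison or in the interaction, by edgeR.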

How the data were processed

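Liver RNA of 22 mice was sequenced by the submitters from non-strand-marked libraries (NEBNext Ultra RNA kit, per the labels' protocols), so overlapping antisense reads cannot be told apart. The authors deposited 1 table of estimated counts, whose library totals differ. Salmon 0.11.3 and edgeR 3.24.3 with the build GRCm38.p6 are named, per the submitters' processing notes. Their annotation is not given in the sources used here. Salmon divides reads that fit several transcripts by estimation, and 81 of the 83 genes had counts that were not whole in at least 1 library.

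Identifiers were matched to GENCODE M21 (97.7% with version, 99.93% with or without). Estimated counts were rounded (0.0083% of counts changed). Default filterByExpr of edgeR 4.0.16 (minimum count 10, minimum total 15) kept 15928 genes. With TMM scaling, all 22 libraries entered 1 quasi-likelihood fit with a term per group (18 residual degrees of freedom). Genes were called at a Benjamini-Hochberg adjusted p under 0.05 over all genes tested. CPM use the effective library size, and log2 values of single libraries a pseudocount of 0.5. Standard errors (±) of log2 changes came from the F statistic, and ± beside a mean is the SD. Length is that of the shortest principal transcript. A copy is a row with at least 50% of the 31-base words of a transcript, and at least 100 words, in a gene's coding transcripts. The functions were tested on simulated data.

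The genes and lists were chosen with earlier results of these data known. Genes named by rule were called members (there were none), the 5 highest per kilobase, all paralogs by symbol (with Rps4x and Rps3a1), the 2 nearest to no change in conventional pregnancy above the median level (1 of them is not reported here), and the called gene with the largest change in each direction of each list. Rplp0, Rpl4, Rps27, Rpl22, Rps12, Rpl5, Rpl12, Rpl36a, Rps29, Rpl38 and the genes given as examples of the stalk, the 5S particle, Rps6 and Rps19 were chosen after their values were seen. DESeq2 1.42.0, other scalings, no filter, 2-group fits, added copies, a replicate block and leaving out each library were the alternatives. Of 50 pairs of libraries of 1 group, none was a repeat (lowest mean chi-square per gene 32).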

Additional observations from a re-analysis of the deposited data

Results flagged for a closer look

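In 7 cases a single library lay far from the rest of its group (Dixon's test at the 95% level). They came from 116 groups of values checked, and chance flags about 1 in 20 groups. CP2 had 2.89% of its counts on the ribosomal protein genes, against 1.32% to 1.64% in the other CP libraries. CN4 had 82.1 CPM of Rpl22l1 against 25.2 to 39.6 CPM in the other CN libraries, and 371 CPM of Rps27rt against 57.2 to 146 CPM. CN5 had 14% of the Rps27 pair on Rps27rt, against 69.2% to 92.1% in the other CN libraries. GP1 had 158 CPM of Rps27l against 92.5 to 111 CPM in the other GP libraries. Rps12 had 21.6 CPM in CN2 against 8.44 to 13.3 CPM in the other CN libraries, and 26 CPM in GN2 against 10.9 to 14.5 CPM in the other GN libraries.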

How the results depend on the processing

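Of 210 counts of called genes recomputed under the alternatives, 206 were 0. The others, all for germ-free pregnancy, were 1 higher (Rplp0) and 1 lower (Rps27) gene with only the GN and GP libraries fitted, 1 higher (Rplp0) with DESeq2 and 1 higher (Rplp0, log2 0.54) without GN2. Leaving out 1 library gave 0 to 1 higher and 0 lower genes there, and 0 in each direction in the other comparisons. The 105 medians over the 80 genes, counted per alternative and comparison, lay between -0.18 and 0.23. Single libraries changed their sign: conventional pregnancy went from -0.03 to 0.08 without CP1, and germ-free status in pregnant mice from 0.11 to -0.01. Of 836 values of single genes, 77 changed sign and 2 of these reversed by more than their standard error, with copies added: Rpl5 to 0.06 for conventional pregnancy and Rpl12 to 0.11 for germ-free pregnancy. Adding copies found by sequence and testing the Rpl22l1 ratio were chosen after seeing the data. Outside mitochondrially encoded genes the mean share of counts was 2.22% in CN, 1.98% in CP, 2.54% in GN and 2% in GP. The log2 ratio of Rpl22l1 to Rpl22 lay between 0.58 and 0.83 for conventional pregnancy with 1 library left out, and between 0.52 and 0.75 for germ-free pregnancy; without CN4 the GN against CN value was 0.34 (exact permutation p = 0.0325, not adjusted). Deviations of same-numbered libraries correlated at -0.23 to 0.18 for CN and CP and at 0 to 0.22 for GN and GP. They correlated at -0.24 to 0.35 for CN and GN and at -0.16 to 0.04 for CP and GP. Libraries correlated best with their own number for 3 of 5 numbers in GN and GP and for 1 of 5 in CN and CP. These values do not settle whether the numbers mark pairs. With the number as a replicate block, 0 of the 80 genes passed in each comparison, with a lowest edgeR adjusted p of 0.395 and 0.0707 in the pregnancy comparisons, and 1203 and 1627 of all genes were called against 1436 and 1713. The 3 genes below the filter were too low to compare. How far depth limits the others was not tested.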
